A study of Mus musculus with 48 samples.

Results

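Activin B given for 24 h changed the transcriptome of AJ cells that carried an empty vector, the comparison described here. Its members were 6 of the 48 libraries of the series, all from batch 2 and all grown without doxycycline (dox). They were 3 libraries of vector cells that received activin B at 50 ng/ml for 24 h and 3 of vector cells that did not, chosen by their labels and not by any measured value. AJ is the mouse pancreatic neuroendocrine tumour line labelled AJ5257-1. All 6 cultures carried the plasmid PB-33, labelled as control. The series also held the mouse insulinoma line βTC3, and AJ or βTC3 cells in which dox at 2 µg/ml switches on wild-type ALK7 (AJ only) or a constitutively active ALK7 (ALK7-CA). Cells were plated in triplicate wells, and nothing in the labels gives independent cultures, so that p-values measure the spread between these libraries, which may be technical. The libraries were made from polyA RNA with a strand-specific kit.

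Activin B is a dimer of the inhibin βB subunit, a ligand of the TGFβ family. It binds a type II receptor (ACVR2A or ACVR2B), which recruits and phosphorylates a type I receptor, ALK4 (Acvr1b) or ALK7 (Acvr1c). The type I kinase then phosphorylates SMAD2 and SMAD3, which enter the nucleus with SMAD4 and, among many targets, switch on inhibitors of the same pathway such as SMAD7, SKIL and PMEPA1. In pancreatic endocrine cells ALK7 is known as a receptor that restrains β-cell growth and insulin secretion, and in their tumours as an inducer of cell death.

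The 6 libraries held 17.98 to 22.3 M counted reads (M, 1e6 reads; median 19.9 M), against 17.98 to 38.8 M over all 48. Of the 10 endocrine markers all 10 were at 1 CPM (counts per 1e6 counted reads) or more in both groups, and their summed level was 12740 to 14110 CPM without and 14790 to 15410 CPM with activin B. The β-cell markers summed to 959.5 to 973 CPM and 916 to 962 CPM, against 30390 to 31230 CPM in untreated βTC3 cells, and Ins2 had between 0 and 18 reads per library. The label of an endocrine line therefore held, while the insulin genes that define β cells were near 0. Markers of fibroblasts (7.72 to 11.3 CPM), endothelium (74.2 to 81.9 CPM), leukocytes (2.62 to 5.001 CPM) and acinar cells (4.06 to 4.80 CPM without and 6.06 to 6.80 CPM with activin B) were low in each of the 6 libraries, with Col3a1, Cldn5, Tie1, Cd3e, Cpa1 and Prss2 among those at 0 throughout. Of these 4 lists, 1 gene, the acinar lipase Pnlip, passed the test. In bulk RNA, a change in the number of cells of a kind and a change in RNA per cell cannot be told apart. A library used only in the last comparison stood apart: the ALK7-CA replicate 1 at 24 h held transcripts typical of βTC3 at 3.76% of their βTC3 level, against at most 0.0128% in the 6 libraries compared here.

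Of 14872 genes tested, 3348 (22.5%) passed an adjusted p of 0.05, 1727 higher (11.6%) and 1621 lower (10.9%) with activin B. These shares are the background for the counts within gene lists below. All p-values given below are Benjamini-Hochberg adjusted over the tested genes and come from edgeR's quasi-likelihood F test. Most changes were modest. The median fold of the genes that passed was 1.27, 2406 of them (71.9%) changed by under 1.5-fold, and 443 changed at least 2-fold, 276 upward and 167 downward. In 3296 of the 3348 the 3 treated libraries did not overlap the 3 untreated ones, a separation that 5173 of all tested genes (34.8%) showed. The median log2 fold change of all tested genes was close to 0 (-0.00216).

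**Figure D1:**
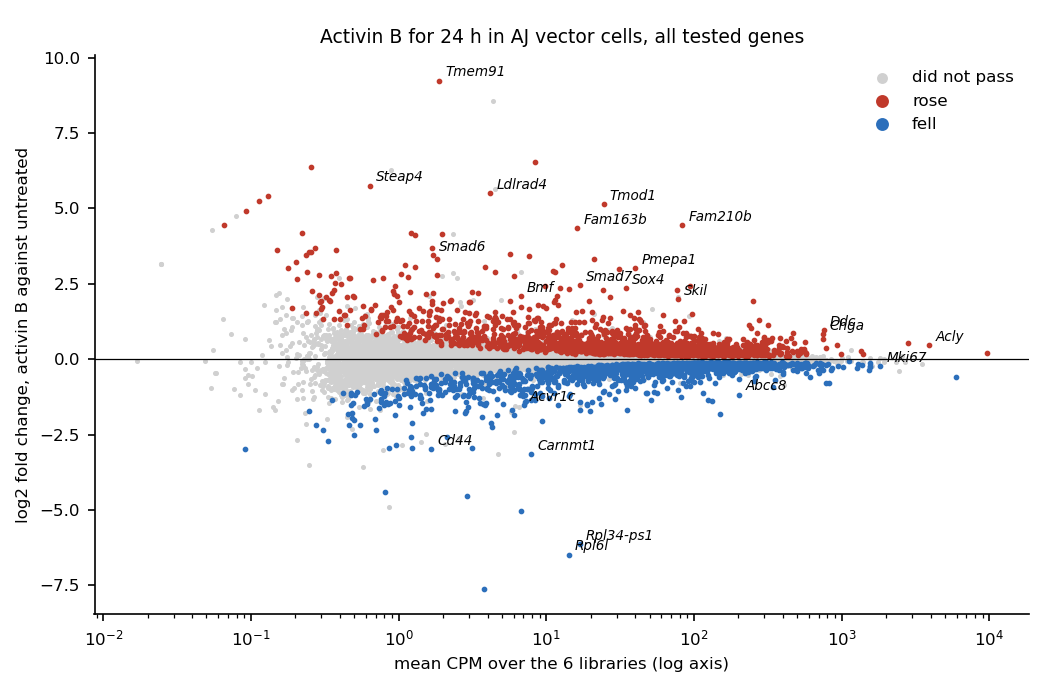
Log2 fold change with activin B against mean CPM over the 6 libraries (log axis), 1 point per tested gene, with genes that rose, fell or did not pass in separate colours. Of 14872 genes 1727 rose and 1621 fell, most by under 1.5-fold, while Fam210b, Tmod1 and Ldlrad4 rose 21.9-, 35.2- and 45.9-fold.

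The largest rises were in genes that were nearly silent before. Tmem91, a transmembrane protein gene, had 0 reads in all 3 untreated libraries and stood at 3.83, 3.34 and 4.07 CPM with activin B, a level at least 72.2-fold higher when the untreated group is set at a floor of 3 reads over the group (adjusted p = 5.97e-07). Steap4, a metalloreductase, had 1 read over the untreated libraries and 78 over the treated ones, a ratio of 73.8 with a 95% exact counting interval of 12.9 to 2952. Tmod1, which caps the pointed ends of actin filaments, went from 1.22, 1.39 and 1.44 CPM to 49.6, 45.3 and 47.9 CPM. The treated libraries lay far above the untreated ones in all 3 genes. Tmod1 rose 35.2-fold, by 5.14 ± 0.08 on the log2 scale (SE; adjusted p = 9.16e-12), the smallest adjusted p among the genes named by size. Fam210b, a mitochondrial protein gene known from erythroid cells, read 7.64, 8.08 and 6.09 CPM without and 159.8, 155.4 and 163.7 CPM with activin B, 21.9-fold higher (adjusted p = 9.31e-12). Fam163b rose 20.3-fold, Agt (angiotensinogen) 18.3-fold, Ttyh1 (a chloride channel of the tweety family) 17.7-fold, Afap1l2 17.2-fold and P3h2 (a collagen prolyl hydroxylase) 11.2-fold, with adjusted p from 3.70e-10 to 0.000161 and no overlap between groups in any of the 5.

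Apart from a pair of ribosomal copies, the falls named by size were at most 8.81-fold. Cd44, the hyaluronan receptor, stood at 3.39, 2.90 and 2.55 CPM without and 0.234, 0.686 and 0.165 CPM with activin B, and Cd36, a fatty acid transporter, at 5.74, 4.63 and 6.26 against 0.514, 0.412 and 1.26 CPM. In both genes the groups of this batch separated fully, but the untreated vector libraries of batch 1 read 0.836, 0.986 and 1.497 CPM of Cd36 when scaled to the total count, a range that the treated libraries overlapped. Cd44 was 7.84-fold lower (log2 -2.97 ± 0.35, adjusted p = 7.31e-05) and Cd36 7.74-fold lower (adjusted p = 7.26e-05). Igsf5 (7.73-fold), Gulo (7.70-fold), Lipf (7.21-fold) and Stum (5.98-fold) also fell, each from no more than 2.62 CPM. Carnmt1, a carnosine methyltransferase, fell 8.81-fold (adjusted p = 0.011), with 1 untreated library at 2.85 CPM and the others at 21.5 and 18.3. Scaled to the total count, its treated libraries read 2.04, 2.04 and 0.612 CPM. The untreated libraries of batch 1 read 2.33, 23.2 and 12.1 CPM, so that untreated replicates varied widely in both batches. Rpl6l (89.4-fold, log2 -6.48, adjusted p = 0.0181) and Rpl34-ps1 (70.4-fold, log2 -6.14, adjusted p = 0.0324) had the largest falls of those named. Rpl34-ps1 read 72.2, 8.75 and 18.9 CPM untreated and 0.275 to 0.654 CPM treated, and Rpl6l read 82.9, 0.557 and 0.554 CPM untreated and 0.281 to 0.330 CPM treated. Both share sequence with other ribosomal protein genes, and no source used here says how the authors' counting divided such reads. Without untreated replicate 1, the log2 change of Rpl6l was -0.83 (adjusted p = 0.236), and Rpl34-ps1 missed the threshold in 4 of the 6 fits that left out 1 library.

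The 300 bases around the starts of some of these genes are shown for the short letters that SMAD proteins are known to bind. Promoters are RefSeq windows on GRCm38.p6, 250 bases before to 50 after a start, printed 5′ to 3′ on the gene's strand, with matches in capitals to CAGAC (or GTCTG, its reverse complement) or to the palindrome GTCTAGAC. Smad6 (chr9:64022010-64022309, minus strand) was taken as an induced inhibitor, Tmem91 (chr7:25675117-25675416, minus strand), Steap4 (chr5:7960222-7960521, plus strand) and Tmod1 (chr4:46038972-46039271, plus strand) as large rises, and Cd36 (chr5:17835847-17836146, minus strand) as a large fall.
Smad6: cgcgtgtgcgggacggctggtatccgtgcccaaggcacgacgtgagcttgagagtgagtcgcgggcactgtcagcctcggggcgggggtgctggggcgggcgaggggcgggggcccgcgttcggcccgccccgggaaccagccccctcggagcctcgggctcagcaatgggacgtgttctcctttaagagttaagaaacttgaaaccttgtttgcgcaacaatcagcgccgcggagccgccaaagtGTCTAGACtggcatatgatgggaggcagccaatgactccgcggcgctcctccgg
Tmem91: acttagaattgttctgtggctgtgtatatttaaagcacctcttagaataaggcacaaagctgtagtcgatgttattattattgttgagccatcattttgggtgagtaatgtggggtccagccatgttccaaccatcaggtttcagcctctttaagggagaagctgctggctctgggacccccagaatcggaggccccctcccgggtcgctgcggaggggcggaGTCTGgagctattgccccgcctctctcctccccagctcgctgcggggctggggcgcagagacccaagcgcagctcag
Steap4: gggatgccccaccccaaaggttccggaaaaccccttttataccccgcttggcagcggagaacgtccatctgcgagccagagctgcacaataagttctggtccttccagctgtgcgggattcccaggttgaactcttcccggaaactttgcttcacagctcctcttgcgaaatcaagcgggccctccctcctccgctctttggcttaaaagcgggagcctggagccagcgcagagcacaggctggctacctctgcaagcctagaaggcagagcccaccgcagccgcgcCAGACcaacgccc
Tmod1: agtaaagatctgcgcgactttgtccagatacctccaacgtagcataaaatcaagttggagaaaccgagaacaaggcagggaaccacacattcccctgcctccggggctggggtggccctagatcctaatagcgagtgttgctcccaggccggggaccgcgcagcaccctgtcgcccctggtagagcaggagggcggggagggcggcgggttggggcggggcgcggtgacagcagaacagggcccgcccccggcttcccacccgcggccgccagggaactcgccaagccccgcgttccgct
Cd36: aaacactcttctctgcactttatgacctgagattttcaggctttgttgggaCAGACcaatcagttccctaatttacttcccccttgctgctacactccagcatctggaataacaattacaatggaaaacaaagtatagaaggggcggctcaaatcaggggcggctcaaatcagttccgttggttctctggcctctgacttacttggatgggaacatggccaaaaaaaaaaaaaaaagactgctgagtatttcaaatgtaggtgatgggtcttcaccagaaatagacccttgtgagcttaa
The Smad6 window held 1 GTCTAGAC, which only 0.213% of the 32851 promoters of the table hold, Tmem91, Steap4 and Cd36 held 1 CAGAC each, and Tmod1 held neither. CAGAC on either strand is common and stood in 49.6% of all promoters of the table. Among tested genes it stood in 47.1% of promoters, in 51.3% for genes that rose and in 44.9% for genes that fell, and among those that changed at least 2-fold in 51.9% and 47.7%. GTCTAGAC stood in 0.255% of promoters of tested genes, 0.279% of those that rose and 0.322% of those that fell. Symbols matched the promoter table for 10649 of the 14872 tested genes. The letters of GTCTAGAC hold neither CAGAC nor GTCTG, though a promoter can hold both motifs. Of 24 genes looked up for display, 18 had a window in the promoter table, and Skil and Pmepa1 were among those without. Of the 18, 7 held CAGAC in at least 1 promoter and 1, Smad6, held GTCTAGAC. The GC-rich palindrome GGCGCC stood in 21.1% of tested promoters, 20.9% for rises and 21.0% for falls, and in 18.3% and 9.4% for rises and falls of at least 2-fold. TGANTCA, the AP-1 motif, stood in 4.68%, 5.19% and 4.63%, and in 3.83% and 6.71% at 2-fold or more. These are descriptions of letters, with no test and no claim on binding.

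Among the receptors, the transcript of ALK7 itself fell while that of ALK4 rose. Acvr1c (ENSMUSG00000026834, chr2:58267453-58357895, minus strand) read 10.8, 10.4 and 10.2 CPM without and 4.07, 3.48 and 3.30 CPM with activin B. Every treated library was below every untreated one. The fall was 2.89-fold, -1.53 ± 0.13 on the log2 scale (adjusted p = 4.98e-06). Acvr1b read 39.9, 35.6 and 36.1 CPM against 47.0, 51.0 and 46.4 CPM, 1.29-fold higher (adjusted p = 0.000440), again with no overlap. Per kilobase of exon, the level of Acvr1b was 8.42 ± 0.54 CPM untreated (SD, n = 3) and 10.9 ± 0.57 treated, and that of Acvr1c 1.13 ± 0.04 and 0.389 ± 0.043. The ALK4 transcript was thus the more abundant of the pair in both groups.

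Of the 12 receptors of the family, 9 had enough reads to test, 2 rose, 1 fell and 6 did not pass (median log2 change 0.15). The other rise was Bmpr2, the BMP type II receptor, 1.39-fold higher (adjusted p = 0.000702). The type II receptors of activin did not pass. Acvr2a read 72.5, 75.3 and 73.8 against 88.9, 85.2 and 74.5 CPM (log2 0.17, adjusted p = 0.112), and Acvr2b 7.73, 5.29 and 8.31 against 7.01, 7.09 and 8.52 CPM. Treated and untreated libraries overlapped in both, and the third activin B library was the lowest treated one for Acvr2a. Tgfbr1 (ALK5, the type I receptor of TGFβ) had log2 0.23 with an adjusted p of 0.086, while its type II partner Tgfbr2 had 1 read in all 6 libraries together. Ordered by CPM per kilobase in untreated cells, Bmpr1a was highest at 25.7, followed by Tgfbr1 at 14.7, Acvr2a at 12.99, Acvr1b at 8.42 and Acvr1 at 7.71, then Bmpr2 at 2.11, Acvr2b at 1.81, Bmpr1b at 1.72 and Acvr1c at 1.13. Neighbours whose ranges of 1 SD met were Acvr2b with Bmpr2 and with Bmpr1b.

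Both inhibitory SMADs and Smad9 rose, while Smad2, Smad3 and Smad4, which carry the activin signal, did not pass. Smad2 read 74.7, 76.6 and 74.6 CPM without and 73.3, 76.0 and 71.8 CPM with activin B (log2 -0.03), and the common partner Smad4 had a log2 change of -0.02. Smad3 was low in this line, at 1.58, 1.39 and 0.887 against 1.03, 1.10 and 0.605 CPM (log2 -0.49, adjusted p = 0.279). The groups overlapped in all 3 genes. Per kilobase the untreated level of Smad2 was 8.57 ± 0.13 CPM and that of Smad3 0.232 ± 0.065 CPM (SD, n = 3). Of the 8 SMADs, 3 rose, none fell and 5 did not pass. Smad9, a SMAD of the BMP branch that is also induced by it, read 28.0, 28.9 and 29.4 against 56.5, 54.5 and 56.4 CPM, 1.94-fold higher (adjusted p = 8.27e-08). The treated libraries, however, were not above the 3 untreated vector libraries of batch 1, which read 48.3 to 58.0 CPM when scaled to the total count.

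**Figure D2:**
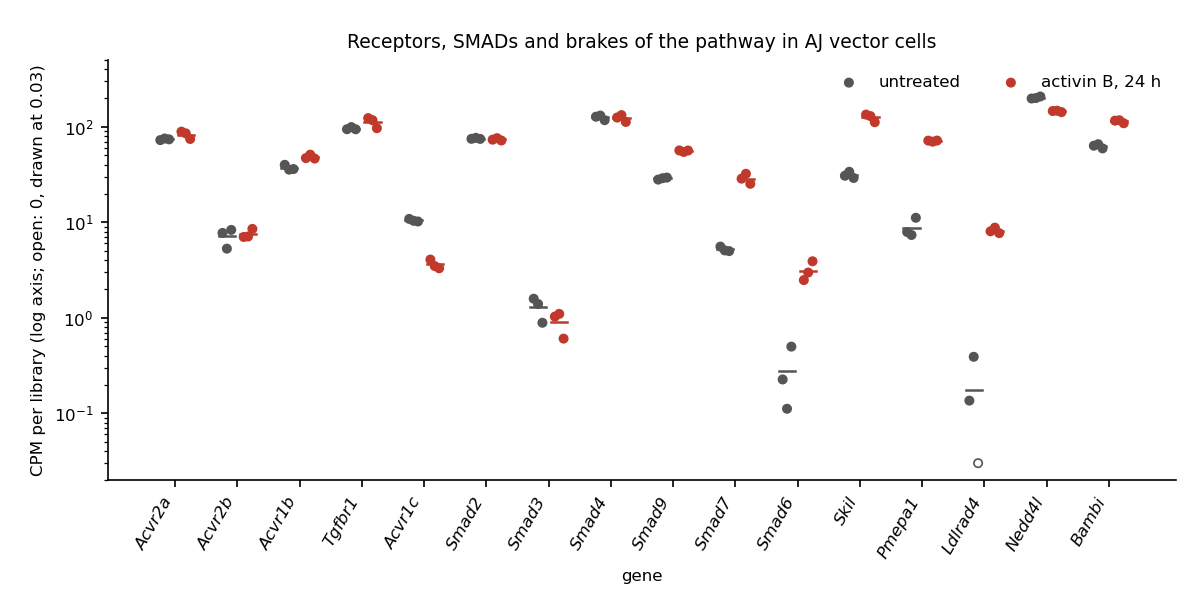
CPM in each library (log axis; an open point at the base marks 0) for receptors, SMADs and inhibitors of the pathway, with bars at the group means, untreated in grey and activin B in red. Acvr1c and Nedd4l were lower and Smad7, Smad6, Skil, Pmepa1, Ldlrad4, Smad9 and Bambi higher in all 3 treated libraries, while Smad2 and Smad4 overlapped.

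Of the intracellular brakes of the pathway, a list that includes the inhibitory SMADs, 6 of 18 tested genes rose. Smad7, which blocks the type I receptor, read 5.56, 5.07 and 4.99 CPM without and 28.6, 32.2 and 25.3 CPM with activin B. Skil (SnoN, a repressor of SMAD complexes) read 30.7, 33.8 and 29.1 against 134, 129 and 112 CPM, and Pmepa1, which withholds SMAD2 and SMAD3 from the receptor, 7.91, 7.36 and 11.1 against 71.6, 69.8 and 71.7 CPM. No library of either group overlapped the other. The rises were 5.50-fold for Smad7 (log2 2.46 ± 0.10, adjusted p = 1.29e-08), 4.01-fold for Skil (adjusted p = 9.91e-09) and 8.09-fold for Pmepa1 (adjusted p = 1.62e-08). Ldlrad4, a relative of Pmepa1 with the same role, read 0.136, 0.390 and 0 CPM untreated and 8.04, 8.79 and 7.69 CPM treated, 45.9-fold higher (adjusted p = 5.19e-07). Smad6, the inhibitory SMAD of the BMP branch, read 0.226, 0.111 and 0.499 against 2.48, 2.97 and 3.90 CPM, 11.03-fold higher (adjusted p = 4.29e-05). Of the other 12 brakes 1 fell and 11 did not pass, and the median log2 change of the 18 was 0.08. Smurf1, a ubiquitin ligase that acts with SMAD7, was the last of the 6, at 1.15-fold (adjusted p = 0.0168). Nedd4l, a ubiquitin ligase that removes activated SMAD2 and SMAD3, fell from 197.6, 199.9 and 207.4 to 146.2, 147.2 and 142.3 CPM (log2 -0.47, adjusted p = 6.60e-07). Tgif1, a corepressor, read 12.7 to 14.4 CPM without and 13.8 to 14.2 CPM with activin B (log2 0.07, adjusted p = 0.524).

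Shares of ligands and of their extracellular modifiers that passed were near the 22.5% of all tested genes. Of 12 tested TGFβ family ligands 3 rose, none fell and 9 did not pass (median log2 0.18). Gdf3 rose 3.03-fold from 0.994 CPM or less (adjusted p = 0.00199), Tgfb1 rose from 4 to 32 reads over each group (log2 2.80, adjusted p = 0.00598), and Bmp1, the procollagen protease, rose 1.13-fold (adjusted p = 0.0345). The subunit of the added ligand, Inhbb, had 4, 1 and 0 reads untreated and 2, 3 and 2 treated, and the activin antagonist Fst had 5, 2 and 7 against 2, 7 and 4, both too few to test. Of 15 antagonists and coreceptors 2 rose, 1 fell and 12 did not pass. Bambi, a decoy receptor, read 63.4, 65.7 and 59.3 against 115.9, 117 and 108.8 CPM (1.81-fold, adjusted p = 1.05e-07), and Ltbp2, a matrix protein related to the carriers of latent TGFβ, rose 3.41-fold (adjusted p = 2.79e-06). Igsf1, a pituitary membrane protein once described as an inhibin coreceptor, fell 1.28-fold (adjusted p = 0.00993).

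Known targets of SMAD2 and SMAD3 in other cells were represented in part. Of 35 listed, 32 matched the annotation, 19 could be tested, 8 rose, none fell and 11 did not pass (median log2 change 0.48). Sox4, a transcription factor of islet development, read 11.7, 10.6 and 11.6 CPM without and 61.6, 60.3 and 52.3 CPM with activin B, with no overlap. It rose 5.13-fold (log2 2.36 ± 0.08, adjusted p = 2.98e-09). Bhlhe40 rose 1.98-fold, Mmp2 1.70-fold, Rhob 1.59-fold and Klf10 1.30-fold. Of 11 tested BMP targets 4 rose and none fell: Smad6, Smad9, Id2 (1.44-fold) and Atoh8 (3.13-fold, from 0.388 CPM or less), whereas Id1 (log2 0.71, adjusted p = 0.170) and Id3 (log2 -0.00) did not pass, and both read highest in the third library of each group. Among Krüppel-like and Sox factors 9 of 18 rose and none fell (median 0.31), Klf9 by 1.83-fold and Sox5 by 2.04-fold besides Sox4.

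Among death and survival genes Bmf rose and Bcl2 fell, without a shift of either whole list. Bmf, a BH3-only protein that frees the mitochondrial death pathway, read 2.76, 2.73 and 2.11 CPM without and 11.03, 11.12 and 10.61 CPM with activin B, 4.30-fold higher (log2 2.10 ± 0.13, adjusted p = 3.88e-07). Bcl2, which opposes it, read 40.2, 39.1 and 41.2 against 26.9, 27.0 and 26.7 CPM (log2 -0.58, adjusted p = 1.57e-05). Neither gene's groups overlapped. Bcl2l11 (BIM), the BH3-only gene often induced by TGFβ, overlapped, at 86.2, 89.1 and 76.4 against 79.7, 84.6 and 81.3 CPM (log2 -0.04, adjusted p = 0.722). Of 20 tested BH3-only and death genes 3 rose and 2 fell, near the 11.6% and 10.9% of all tested genes. Besides Bmf, Dapk1 rose 1.42-fold and Pmaip1 1.17-fold, while Bid, 1 of the 2 that fell, was 1.33-fold lower. In a separate list of 7 survival genes Bcl2l1 (1.19-fold) and Birc2 (1.10-fold) rose, and Bcl2 was the 1 that fell.

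Of 52 genes of DNA replication and mitosis 39 fell, by at most 1.30-fold. Of 26 G1/S and replication genes 18 fell, 8 did not pass and none rose, and of 26 mitosis genes 21 fell, 5 did not pass and none rose, against 10.9% of all tested genes that fell. All log2 changes of both lists were below 0, with medians of -0.19 and -0.22, and the largest was that of Mcm10, 1.30-fold. Mki67, which marks cycling cells, read 1946, 2031 and 1936 CPM without and 1690, 1710 and 1614 CPM with activin B, 1.18-fold lower (adjusted p = 0.000735). Rrm2, a subunit of ribonucleotide reductase, fell 1.29-fold (adjusted p = 6.99e-06), Top2a 1.19-fold and the checkpoint kinase Bub1 1.28-fold. The CDK inhibitors Cdkn1a (p21), at 73.3, 65.6 and 66.8 against 98.1, 94.2 and 100.6 CPM, and Cdkn2b (p15), at 3.93, 3.12 and 3.93 against 4.96, 5.67 and 6.98 CPM, rose 1.42-fold (adjusted p = 5.32e-05) and 1.60-fold (adjusted p = 0.0138). Without untreated replicate 2 the p of Cdkn2b was 0.0563. Cyclin E1 (Ccne1) fell 1.18-fold and Cdk2 1.16-fold, and cyclins D1 and D2 had no more than 4 reads in any library. Of 16 tested targets of p53, 7 rose and none fell: Btg2, an antiproliferative gene, read 46.0, 43.4 and 42.3 against 108.8, 103.6 and 104.4 CPM (2.40-fold, adjusted p = 4.18e-09), and Eda2r rose 2.04-fold, Trp53inp1 1.72-fold and Ccng1 1.36-fold.

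**Figure D3:**
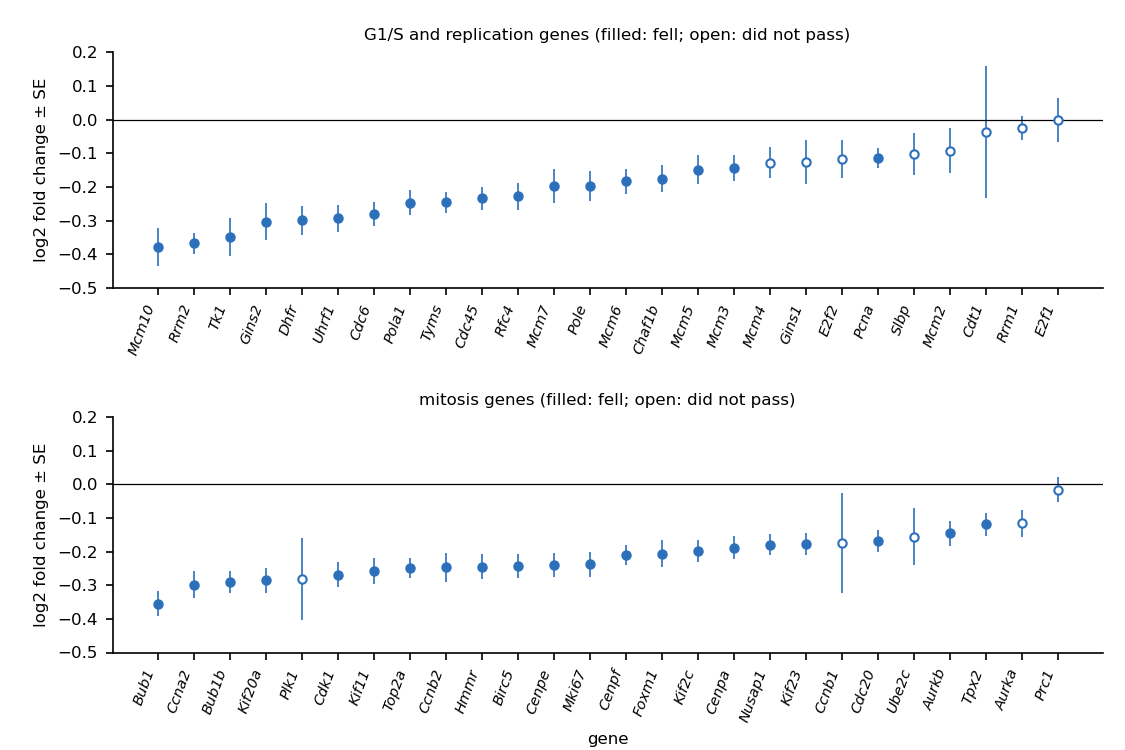
Log2 fold change with activin B (points) and its SE (bars) for 26 genes of G1/S and replication (upper panel) and 26 of mitosis (lower panel), filled where the gene fell and open where it did not pass. No point lies above 0, and the lowest is Mcm10 at -0.38.

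Islet identity genes moved in both directions. Of 29 tested islet transcription factors 4 rose, 7 fell and 18 did not pass (median -0.03). Pax4, a factor of β- and δ-cell fate, read 3.48, 2.84 and 3.05 CPM without and 10.9, 10.8 and 9.56 CPM with activin B. The groups did not overlap. Pax4 rose 3.31-fold (adjusted p = 1.16e-06). Pdx1, the factor of pancreas formation and β-cell function, fell 1.504-fold from 172, 169 and 194 to 109, 116 and 131 CPM (adjusted p = 0.000139). Insm1 fell 1.39-fold, Hnf4a 1.31-fold and Rfx6 1.24-fold, whereas Neurod1 (log2 -0.03), Isl1 (-0.05), Nkx6-1 (-0.04) and Pax6 (0.11, adjusted p = 0.0711) did not pass.

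Of 19 tested peptide hormone genes 1 rose, 4 fell and 14 did not pass (median -0.20). The share that passed was near the 22.5% of all tested genes, of which 11.6% rose and 10.9% fell. Gcg, which encodes glucagon, read 4.84, 3.62 and 4.71 against 1.403, 1.510 and 1.484 CPM (2.99-fold lower, adjusted p = 6.77e-05). Tac1, which encodes substance P, read 69.4, 76.3 and 75.0 against 28.8, 28.2 and 29.0 CPM (2.57-fold lower, adjusted p = 2.41e-08). Gast (gastrin) fell 1.96-fold and Gip (gastric inhibitory polypeptide) 1.28-fold, and Cartpt rose 3.92-fold, from 0.723, 0.780 and 1.27 to 4.02, 3.20 and 3.63 CPM. Neither Ins1, at 1.672, 2.173 and 0.7757 against 1.12, 1.65 and 1.26 CPM, nor Iapp, at 618 to 689 against 682 to 689 CPM, passed. Sst read 356 to 602 against 223 to 452 CPM (log2 -0.56, adjusted p = 0.206), with the third library highest in each group.

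Transcripts of both subunits of the channel that couples glucose metabolism to insulin release were lower. Abcc8 (SUR1) read 283.9, 280.7 and 276.1 CPM without and 124.7, 122 and 126.4 CPM with activin B, and Kcnj11 (Kir6.2) 7.14, 5.24 and 7.42 against 2.48, 2.20 and 3.30 CPM. All treated libraries were below all untreated ones. Abcc8 fell 2.25-fold (log2 -1.17 ± 0.03, adjusted p = 3.70e-10) and Kcnj11 2.49-fold (adjusted p = 0.000361). The genes lie side by side on the minus strand of chromosome 7 (chr7:46104523-46180033 and chr7:46093953-46100764), 3758 bases apart. Of 24 genes of glucose sensing 6 rose, 9 fell and 9 did not pass. The channel Trpm5 fell 3.15-fold and the glucose transporter Slc2a2, with 33 reads untreated and 5 treated, 6.60-fold, while the incretin receptors rose, Gipr 2.35-fold (adjusted p = 3.85e-05) and Glp1r 2.38-fold (adjusted p = 0.000623).

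Granin and processing genes changed in both directions, and changes among exocytosis genes were mostly rises. Of 16 granin and prohormone processing genes 5 rose and 5 fell. Pcsk1, the prohormone convertase 1/3, read 68.6, 67.7 and 61.8 against 30.3, 31.6 and 30.2 CPM (2.15-fold lower, adjusted p = 2.00e-08), and Cpe fell 1.30-fold, Scg2 1.22-fold and Pcsk2 1.18-fold. Chga (chromogranin A) read 520, 498 and 601 against 887, 906 and 1099 CPM (1.79-fold higher, adjusted p = 5.45e-05). Of 28 tested genes of vesicle exocytosis 14 rose, 1 fell and 13 did not pass (median log2 change 0.20; 24 of the 28 above 0). Cplx2 (complexin 2), a regulator of SNARE fusion, read 338, 333 and 316 against 605, 627 and 572 CPM (1.83-fold, adjusted p = 5.92e-08), and Snap25 202, 204 and 198 against 327, 322 and 288 CPM (1.55-fold, adjusted p = 6.14e-06). Both genes separated fully, as did Syt5 (1.92-fold), Rab3b (1.49-fold) and Rab3c (1.44-fold). Cadps was the 1 that fell, by 1.11-fold.

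In monoamine synthesis the enzymes diverged. Ddc, the decarboxylase that makes dopamine and serotonin, read 519, 533 and 483 CPM without and 1011, 1002 and 979 CPM with activin B (1.95-fold, adjusted p = 1.02e-08). Th, which makes its substrate, fell 1.62-fold (adjusted p = 2.84e-05), the vesicular transporter Slc18a1 2.70-fold (adjusted p = 1.51e-05) and the cofactor enzyme Gch1 1.46-fold. Of 9 tested genes 2 rose and 4 fell. The groups did not overlap in any of these 4.

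Matrix and cytoskeleton changed in single genes more than as lists. Over all tested genes 11.6% rose and 10.9% fell. Lamb1, a laminin chain of basement membranes, read 2.62, 2.51 and 2.55 CPM without and 19.8, 18.6 and 20.7 CPM with activin B, 7.67-fold higher (log2 2.94 ± 0.07, adjusted p = 2.29e-10). Vim (vimentin), usually induced in a mesenchymal transition, read 26.2, 27.5 and 30.0 against 9.444, 10.11 and 10 CPM, 2.83-fold lower (adjusted p = 1.05e-07). Neither gene's groups overlapped. Of 31 matrix genes 4 rose and 6 fell, Fbn2 8.71-fold up from 0.316 CPM or less and Fbln2 1.70-fold down. Of 10 testable genes of mesenchymal transition, 1 rose (Cdh2, 1.23-fold) and 1 fell (Vim), and Zeb1 (log2 -0.01), Zeb2 (-0.21, adjusted p = 0.138) and Snai2 (0.33, adjusted p = 0.387) did not pass. Among metalloproteases and their inhibitors 11 of 27 rose and 4 fell (median 0.16), with Adamts7 7.02-fold higher and Adamts5 2.80-fold lower. Of 26 integrins and adhesion genes 8 rose and 2 fell, Itgb5 2.36-fold up and Itga4 2.50-fold down.

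Stress and lipid lists leaned downward by small amounts, where 11.6% of all tested genes rose and 10.9% fell. Of 23 chaperones of the endoplasmic reticulum 1 rose (Dnajb9, 1.22-fold) and 9 fell, Hspa5 (BiP) by 1.15-fold (adjusted p = 0.000660) and Pdia6 by 1.30-fold, with a list median of -0.08. Of 22 genes of the integrated stress response 1 rose and 9 fell (median -0.15), with Phgdh 1.60-fold and Mthfd2 1.30-fold lower, while Atf4 (log2 -0.05) and Ddit3 (0.01) did not pass. Of 34 genes of cholesterol and fatty acid synthesis 12 fell, including Scd1 (1.39-fold). The 1 that rose was the ATP citrate lyase Acly, from a mean of 3282 to 4574 CPM (1.39-fold, adjusted p = 9.74e-07). Of 37 genes of oxidative phosphorylation none rose, 6 fell and 31 did not pass (median -0.04). Of 27 interferon and antigen presentation genes 1 rose (Oasl2, 2.11-fold) and 4 fell, Usp18 by 3.29-fold (adjusted p = 1.33e-06). In the oxidative phosphorylation and interferon lists the share that passed was below the 22.5% of all tested genes.

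The untreated vector cells of batch 1 gave a further set of levels, scaled to the total count. Of the 3348 genes that passed, 2069 (61.8%) had all 3 treated libraries outside the range of all 6 untreated ones, as had 20.2% of all tested genes. By list, this held for 34 of the 39 cell-cycle genes that fell, 7 of 7 p53 targets, 13 of 13 genes of cholesterol and fatty acid synthesis and 6 of 7 brakes. Near the 61.8% were peptide hormones (3 of 5), exocytosis (9 of 15), integrins and adhesion (6 of 10) and matrix (6 of 10). Below it were SMAD2 and SMAD3 targets (4 of 8), BMP targets (2 of 4) and islet transcription factors (5 of 11). So were genes of glucose sensing (7 of 15), metalloproteases (8 of 15) and the integrated stress response (5 of 10). Among genes named here that passed, those whose treated libraries did not lie outside the 6 were Smad9, Smurf1, Bhlhe40, Mmp2, Rhob, Atoh8, Fosl2, Mki67, Hnf4a, Rfx6, Gast, Gip, Glp1r, Slc2a2, Pcsk2, Syt5, Rab3c, Cadps, Cdh2, Itgb5, Itga4, Phgdh, Pnlip and Cd36. Mki67 read 1585 to 1697 CPM in batch 1. Itgb5, which rose in batch 2, read 32.9, 31.1 and 31.7 CPM in untreated batch 1 against 24.8, 23.1 and 28.4 CPM in the treated libraries. Batch and these levels cannot be told apart, and the test within batch 2 does not use batch 1.

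**Figure D4:**
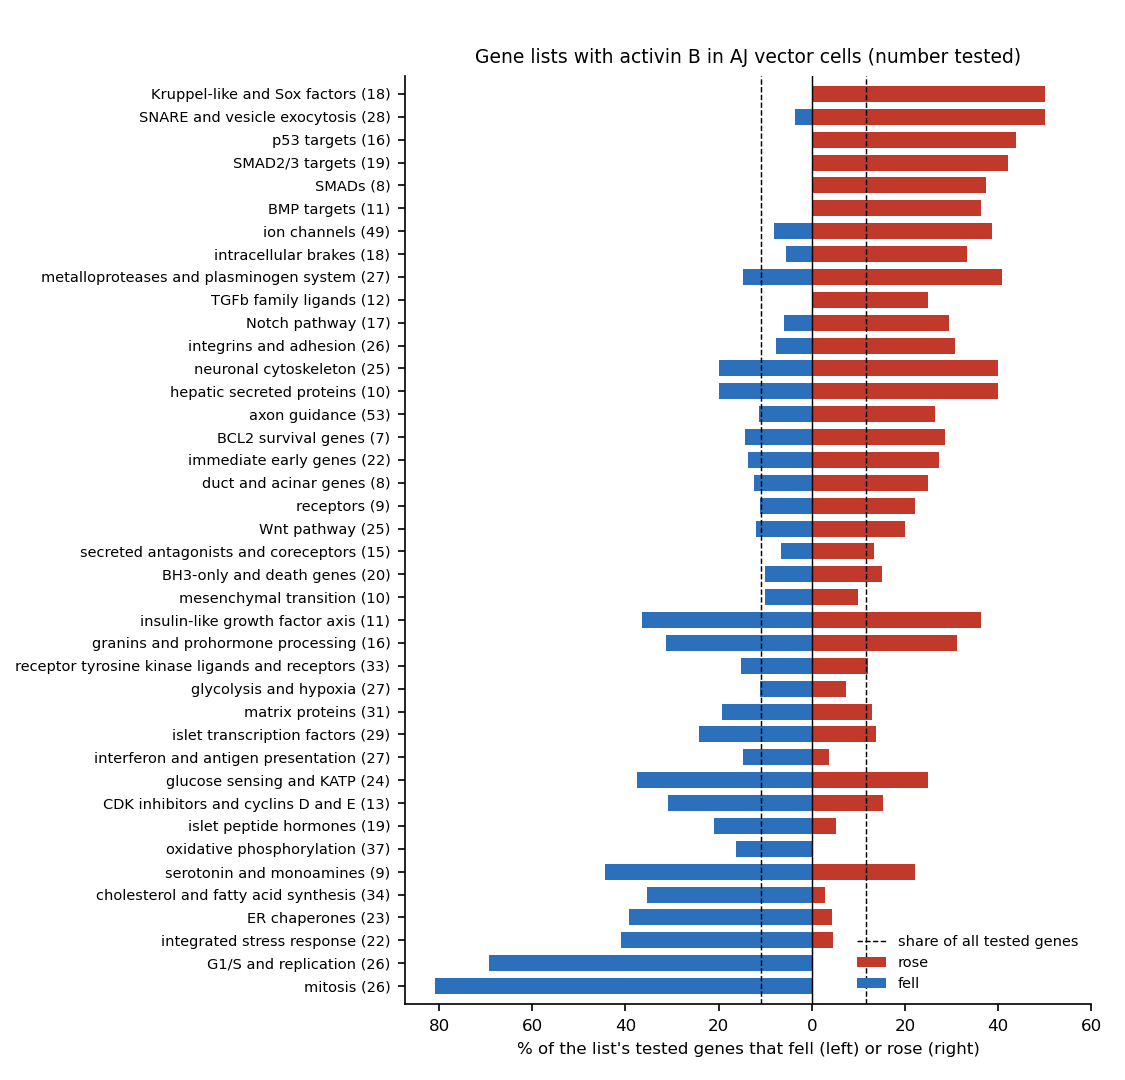
Share of each list's tested genes that fell (left of 0) or rose (right of 0) with activin B, in percent, with the number tested beside the list's name. Mitosis and G1/S lists hold falls and no rises (21 and 18 of 26 each), and the exocytosis and ion channel lists hold more rises than falls (14 against 1 of 28 and 19 against 4 of 49).

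In the AJ cells labelled as carrying wild-type ALK7, which had dox for 24 h, activin B changed 4878 genes (32.8%; 16.5% rose and 16.3% fell). Acvr1c read 13.5, 13.4 and 10.3 CPM in these cells without the ligand and 3.65, 4.01 and 3.34 CPM with it, close to the vector cells, so that its count does not check the label, and no source used here gives the receptor sequence of the plasmid. The difference between the vector cells and those labelled ALK7 in the effect of activin B passed in 381 genes (2.56%), 210 of them (1.41%) with a more positive and 171 (1.15%) with a more negative effect in vector cells. Plasmid and dox differed together and cannot be told apart. For the brakes, the log2 changes in vector and ALK7 cells were 2.00 and 2.04 for Skil (SE of the difference 0.11), 3.02 and 3.12 for Pmepa1 (0.18) and 2.46 and 3.03 for Smad7 (0.14), and none of the 3 differences passed (adjusted p = 0.954, 0.893 and 0.0599). Tmod1 differed most among the positive differences, at 5.14 in vector and 2.91 in ALK7 cells (difference 2.23 ± 0.11, adjusted p = 1.69e-06). Its untreated level was 1.35 ± 0.12 CPM in vector and 11.6 ± 0.64 CPM in ALK7 cells (SD, n = 3). With activin B it read 47.6 ± 2.2 CPM in vector and 87.1 ± 4.4 CPM in ALK7 cells, so that the smaller fold in ALK7 cells went with the higher treated level. Vim fell in vector cells and not in ALK7 cells, which read 14.4, 14.3 and 16.8 CPM without and 14.99, 13.93 and 14.8 CPM with activin B (difference -1.45, adjusted p = 5.31e-05). Tgif1 had a log2 change of 0.07 in vector cells and 1.09 in ALK7 cells (difference adjusted p = 0.000105). Smad9 had 0.96 against 1.64 (adjusted p = 0.000307) and Fosl2 0.38 against 1.48 (adjusted p = 6.94e-05). The fall of Acvr1c was -1.53 in vector and -1.76 in ALK7 cells, a difference that did not pass (adjusted p = 0.701).

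Between the lines, 1408 of 15444 genes (9.12%) differed in their response to activin B, 712 (4.61%) with the more positive and 696 (4.51%) with the more negative effect in AJ. Of 3319 genes that passed in AJ and could be tested in the joint fit, 1350 passed in βTC3 too, and 143 of these went in opposite directions, in all 143 of which the difference passed. The other 1969 missed the threshold in βTC3, and the difference passed in 453 of them. Acvr1c read 136.5 ± 9.7 CPM in untreated βTC3 cells (SD, n = 3), and its log2 change there was -0.27, against -1.53 in AJ (difference -1.27, adjusted p = 5.54e-05). The KATP subunit Abcc8 had -0.30 in βTC3 against -1.17 (adjusted p = 3.27e-06), and Sox4 0.83 against 2.36 (adjusted p = 6.88e-06). Bmf rose more in βTC3, by 3.27 against 2.10 (adjusted p = 0.00133). Snap25 (-0.32), Ntrk2, the BDNF receptor (-1.19), and Th (0.51) changed in βTC3 in the direction opposite to AJ (0.63, 0.66 and -0.69), with adjusted p for the difference of 1.30e-05, 8.13e-08 and 1.17e-06. The Skil, Smad7 and Pmepa1 changes in βTC3 were 1.81, 2.10 and 2.51, and none of these differences passed (adjusted p = 0.454, 0.319 and 0.0776). Of the G1/S and mitosis lists, 8 and 5 genes of 26 fell in βTC3 (where 9.16% of all tested genes fell and 9.76% rose), against 18 and 21 in AJ, but the difference between the lines passed in 4 and 8 genes of these lists, 3 and 8 of them with the more negative effect in AJ. Mki67 (-0.01 in βTC3) was among these (adjusted p = 0.0346).

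**Figure D5:**
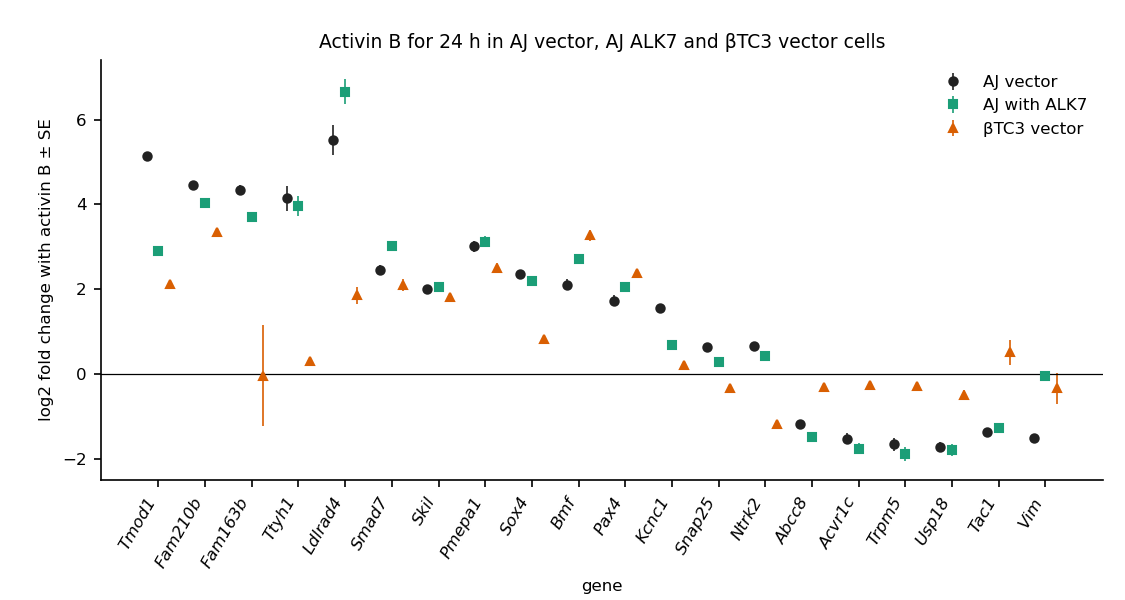
Log2 fold change with activin B ± SE for named genes in AJ vector cells (circles), AJ cells with ALK7 and dox (squares) and βTC3 vector cells (triangles). Skil, Smad7 and Pmepa1 lie above 0 in all 3, with Smad7 at 2.46, 3.03 and 2.10, Vim is at -1.5 in AJ vector and -0.06 in AJ ALK7 cells, and Ntrk2 lies above 0 in AJ and below 0 in βTC3.

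The last comparison set the ligand against an active receptor. In the AJ libraries labelled ALK7-CA, 24 h of dox changed 6284 of 15211 genes (41.3%; 20.4% rose and 20.9% fell) against its own vector control in batch 1, and the difference from the activin B effect passed in 2368 (15.6%; 8.3% higher and 7.27% lower with activin B), or in 2155 without the ALK7-CA library that held βTC3-typical transcripts. Plasmid, dox, ligand and batch differ together between these effects. The fall of Acvr1c had a log2 change of -1.53 with activin B and -1.49 with ALK7-CA (difference adjusted p = 0.964). Without replicate 1, the library that held βTC3-typical transcripts, the difference was 0.49, the effect of ALK7-CA being the more negative (adjusted p = 0.0827). The transcript read 6.14, 2.53 and 2.67 CPM in the ALK7-CA libraries and 9.56 to 11.3 CPM in their controls, so that this count does not check the label either. Skil rose by 2.00 and 1.89 (adjusted p = 0.606), whereas Sox4 rose by 2.36 with activin B and 5.92 with ALK7-CA (adjusted p = 7.31e-08), Bmf by 2.10 and 4.23 (adjusted p = 1.26e-06) and Lamb1 by 2.94 and 5.36 (adjusted p = 3.34e-07). Gip had -0.36 and -2.34 (adjusted p = 7.31e-08). Without replicate 1 these last 4 differences passed too (adjusted p of at most 7.25e-06). Among the positive differences named by size were Lrrtm4 (3.98), Scara3 (3.68), St8sia4 (3.62) and Cd9 (3.61). Their log2 changes were 0.29, -1.02, 0.91 and 0.42 with activin B and -3.7, -4.70, -2.71 and -3.19 with ALK7-CA. Lrrtm4 and Scara3 averaged 0.0523 and 0.0372 CPM with ALK7-CA. Among the negative differences were Kif26a (-4.54), Cpm (-3.98), Pkib (-3.68) and Spata13 (-3.59), besides Rpl34-ps1 (-6.56), which missed the threshold in 8 of 17 alternatives. The first 4 changed by 1.37, -0.09, -1.40 and -1.01 with activin B and 5.90, 3.89, 2.275 and 2.575 with ALK7-CA. With activin B, Lrrtm4, Cd9, Cpm and Pkib did not pass. The 8 genes named here other than Rpl34-ps1 passed without that library too (adjusted p of at most 0.0128).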

How the data were processed

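PolyA RNA of 48 libraries was sequenced. Per the submitters' processing notes, the authors used bcl2fastq 2.17, cutadapt 1.4.2, HISAT2, featureCounts 1.4.4, edgeR and the mouse build mm10. No source used here gives the strand setting, the annotation release or the versions of HISAT2 and edgeR. The deposited tables hold raw counts per Ensembl gene (39017 identifiers, 37693 of which GENCODE M21 named), and the deposited series table was equal to the 48 per-library tables. A deposited table of normalized values was not used.

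Counts were fitted in R 4.3.3 with edgeR 4.0.16 (TMM scaling, filterByExpr with a minimum count of 10, a minimum total of 15 and a minimum proportion of 0.7, quasi-likelihood F test, Benjamini-Hochberg adjustment, threshold 0.05). The 12 AJ libraries of batch 2 shared 1 estimate of the spread (common biological coefficient of variation 0.102). Differences between effects were interaction terms, across lines or batches in joint fits of 12 libraries. CPM use TMM-scaled library sizes, except marker sums and levels set across batches, which use total counts. An SE is the absolute log2 fold change divided by √F. Depth was 17.98 to 22.3 M (1e6) counts per library. Counting intervals are exact 95% intervals, and these and the floor of 3 counts cover counting error only. Replicates differed by a chi-square of 6.47 to 14.4 per gene, and none were identical. The fits were tested on simulated data. In the main comparison 73.1%, 88.1% and 98.5% of simulated 1.5-, 2- and 4-fold changes were found, with 18 false calls. For the differences from AJ cells with ALK7, βTC3 and ALK7-CA, 59.7%, 46.3% and 25.4% of 1.5-fold changes were found. False calls there were 12, 4 and 5. Same-numbered replicates of the 2 groups had residual correlations of 0.003, 0.244 and 0.501, so that the numbers were not read as pairs. Alternatives were DESeq2 1.42.0, RLE scaling, other filters, fewer libraries, a replicate block and leaving out each library.

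The 46 gene lists (1157 symbols, 840 tested) and the members were chosen with earlier results of these data known. Genes named were the 10 largest rises and 10 largest falls that did not overlap between groups and averaged 20 counts or more in the group where they were higher, predicted, clone and RIKEN names left out, up to 4 members of each list by adjusted p, every tested receptor, SMAD, ligand, antagonist and brake, and Bmf, Bcl2l11, Cdkn1a, Cdkn2b, Sox4, Mki67, Ins1, Ins2 and Pdx1. In each difference between effects the 5 largest in each direction were named. The comparison with the untreated libraries of batch 1, and other genes named outside this rule (such as Kcnj11, Scg2 and Fosl2), were chosen after their values were seen. Some genes that the rule names are not reported here.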

Additional observations from a re-analysis of the deposited data

Results flagged for a closer look

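The response to activin B differed between AJ and βTC3 vector cells in 1408 genes and between AJ vector cells and AJ cells labelled ALK7 in 381, each by a test of the difference itself (an interaction term, edgeR's quasi-likelihood F test, adjusted p under 0.05). Differences below are the log2 effect in AJ vector cells minus the other.

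Against βTC3, Sstr4, a somatostatin receptor, differed by 4.54 (log2 0.72 in AJ and -3.83 in βTC3, where it read 0.0823 CPM untreated and 0 treated, so that the fitted value there depends on the prior count and is no bound), a call that was lost in 4 of 17 alternatives, each without 1 βTC3 library. Ttyh1 differed by 3.84 and Ldlrad4 by 3.66, and both had higher untreated levels in βTC3 (40.2 and 5.38 CPM) than in AJ (0.198 and 0.175 CPM). Piezo1, a mechanosensitive channel, differed by -3.28, with no change past the threshold in AJ (log2 0.04) and a rise of 3.32 in βTC3. Asb9 differed by -3.14 and the alkaline phosphatase Alpl by -2.61. Asb9 fell in AJ (log2 -2.13). In βTC3 it read only 0.109 CPM untreated and 0.223 CPM treated, a change (log2 1.01) that did not pass. Ribosomal copies, whose reads may be divided between near-identical genes, made up the rest: Rpl34-ps1 differed by -11.59, Rpl6l by -10.48, Rpl10-ps6 by 3.46 and Rps27a-ps2 by 3.36. The calls of Rpl6l and Rpl10-ps6 were lost in 8 of 15 and 8 of 17 alternatives, those of Rpl34-ps1 and Rps27a-ps2 in none of 17. Replicates of Rpl34-ps1 nevertheless varied widely, at 33.29 ± 34.05 CPM in untreated AJ and 26.69 ± 36.03 CPM in treated βTC3 cells (mean ± SD).

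Against AJ cells labelled ALK7, Tmod1 differed by 2.23, St8sia4, a polysialyltransferase, by 1.98 (log2 0.91 in vector and -1.07 in ALK7 cells), Minar1 by 1.96 (-0.31 and -2.26), Clmp by 1.89 and the neuronal factor Nhlh2 by 1.87 (0.17 and -1.70). Mcc differed by -2.02, the intermediate filament gene Prph by -1.96 (-0.17 and 1.79), the oestrogen receptor Gper1 by -1.88, the adhesion gene Chl1 by -1.86 (0.01 and 1.88) and Crispld2 by -1.48. The calls of Gper1 and Crispld2 were lost in 9 of 17 alternatives each and those of the other 8 in none.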

How the results depend on the processing

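The number of genes that passed in the main comparison, 3348, was 3088 with DESeq2, 3354 with RLE scaling, 2854 without a filter, 3373 with at least 1 CPM in 3 libraries, 2419 in a fit of the 6 libraries alone, and 2643 to 3144 when 1 library was left out. The replicate numbers were not read as pairs, and between the vector groups only replicate 3 correlated best with its own number. Between the other groups of AJ batch 2, replicate 3 did so in every pair of groups, and replicate 1 or 2 in some. For replicate 1 of the treated vector and the untreated ALK7 cells the correlation was 0.454. With the replicate block the count was 4160, of which 3315 were shared with the 3348. The block raised the difference from cells labelled ALK7 from 381 to 623 genes, and leaving out 1 library lowered it to between 239 and 363 (239 without activin B replicate 2 of the vector cells, 240 and 244 without an ALK7 library). The difference from βTC3 (1408) ran from 1010 to 1421 and that from ALK7-CA (2368) from 1802 to 3030 when 1 library was left out. Without a filter, 57.9% of calls were upward, against 51.6%. Of the 171 named genes that passed, 161 did so in every alternative and none reversed. The calls of Atp5c1, Cdkn2b, Rpl34-ps1, Rpl6l, Atoh8, Ccne1, Cdk2, Bmp1, Birc2 and Rsad2 were each lost in at least 1 alternative, while Acvr2a, Trim33, Tgfbr1, Ski, Bmpr1a, Fstl4 and Smad5 passed under the block, all but Ski also without activin B replicate 3. Inha, Tgfb2, Fstl1 and Dact2 passed without 1 library. The cause was not tested. With 3 libraries a group, low genes such as Tgfb1 and Igfbp5 rest on few reads.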

Other observations

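Genes of neuronal wiring and excitability were among those that changed, where 11.6% of all tested genes rose and 10.9% fell. Of 49 tested ion channel genes 4 fell and 19 rose, and the rest missed the threshold, with a median log2 change of 0.20. Kcnc1, a fast potassium channel, read 21.2, 22.5 and 20.2 CPM without and 63.6, 64.3 and 59.0 CPM with activin B (2.93-fold, adjusted p = 7.97e-09). The T-type calcium channel Cacna1g rose 4.16-fold, Kcnk9 3.79-fold and Kcnmb2 2.44-fold, while Kcnk2 fell 1.98-fold. Of 53 axon guidance genes 14 rose and 6 fell (median 0.10), the falls near the share of all tested genes. Sema3c was 2.02-fold and Plxna2 1.90-fold higher, and Ntng1 was 1.96-fold lower. The neurofilament genes Nefl (2.90-fold), Nefm (2.02-fold) and Nefh (1.24-fold) fell, whereas Stmn4 (2.33-fold), Gap43 (1.65-fold) and Tubb3 (1.47-fold) rose, within a list of 25 in which 10 rose and 5 fell.

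Of the genes that passed, the 3 treated libraries lay outside all 6 untreated vector libraries of both batches in 12 of 23 ion channel genes, 12 of 20 axon guidance genes and 6 of 15 cytoskeleton genes, and Gap43, Stmn4 and Tubb3 did not.

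Notch pathway genes included rises of Hes6 (2.20-fold), Hes1 (2.52-fold) and the ligand Dll4 (2.91-fold) and a fall of the glycosyltransferase Lfng (3.60-fold), with 5 of 17 up and 1 down. Treated libraries lay outside all 6 untreated ones for 3 of the 6, and Hes1 read 6.00, 7.33 and 5.92 CPM in untreated batch 1 against 6.35, 6.35 and 6.23 CPM treated. None of these 4 differed past the threshold from βTC3 or from AJ cells labelled ALK7. Of 25 Wnt genes 5 rose and 3 fell, against 11.6% and 10.9% of all tested genes. Dkk3 was 6.96-fold up from a mean of 0.445 CPM. Of 10 secreted proteins typical of liver 4 rose, all of them Serpina1 paralogs that share sequence and so are uncertain one by one, and Rbp4 fell 2.83-fold (adjusted p = 1.45e-08). Among growth factor receptors Fgfr1 rose 1.76-fold, Fgfr2 1.73-fold and Ntrk2 1.58-fold. In their list 4 of 33 rose and 5 fell, near the 11.6% and 10.9% of all tested genes. Treated libraries lay outside all 6 untreated ones in 4 of these 9, Fgfr1 not among them. Igfbp5 had 2 reads untreated and 27 treated, a ratio of 12.8 with a 95% exact counting interval of 3.21 to 111.

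Tmem91 (chr7:25669139-25675166, minus strand) and Tgfb1 (chr7:25687002-25705077, plus strand), both of which rose from near 0, lie 11835 bases apart on chromosome 7 with B9d2 between them.

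Some genes read highest in the third library of each group. Pcsk1n read 17.2, 11.5 and 49.1 CPM without and 51.7, 64.8 and 268.6 CPM with activin B, and Mafa 3.75, 2.56 and 7.98 against 2.01, 1.92 and 6.82 CPM. For Pcsk1n the rise (4.96-fold, adjusted p = 0.0395) was lost in 4 of 12 alternatives, and its treated libraries were not outside all 6 untreated ones.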
